A study of Mus musculus with 8 samples.

Results

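Transcripts of 10 genes of the ATF4 stress branch were compared between newborn epidermis that expresses a mutant mitochondrial helicase and control epidermis. The 10 were listed by symbol: the transcription factors Atf4, Atf3, Atf5, Ddit3, Cebpb, Cebpg and Nupr1, the pseudokinase gene Trib3, and the genes of the secreted factors Fgf21 and Gdf15. A gene was read from a probe set that names it alone, and 9 of the 10 had exactly 1 such probe set among the 22180 genes of the array. Gdf15 had none and was not analysed here. The samples were 4 arrays of epidermis labelled K320E-TwinkleEpi (K320E below) and 4 control arrays labelled R26-K320E-TwinkleloxP/+. All came from C57BL/6J newborns at postnatal day 0, and both genotype labels name the K320E-Twinkle allele. In K320E, expression of the mutant helicase depends on the K14 promoter. That promoter is active in basal keratinocytes, and the arrays do not show which cells of the tissue carried the mutant helicase. They also do not show whether the promoter drives the helicase itself or acts through the loxP allele. The labels do not say whether each array is a separate animal, so every p-value measures the spread between these arrays, which may be technical.

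ATF4 is a basic leucine zipper factor that cells make when the initiation factor eIF2 is phosphorylated, as happens under amino acid shortage, endoplasmic reticulum (ER) stress or mitochondrial damage. Its production is controlled mainly at translation, so its mRNA is not a direct measure of the protein. ATF4 pairs with C/EBP-type partners on a composite DNA element, the C/EBP-ATF response element or CARE, and switches on amino acid supply genes together with a next tier of regulators, among them ATF3, ATF5, CHOP (the product of Ddit3), TRIB3 and NUPR1. In muscle and liver with damaged mitochondria the same branch releases FGF21 and GDF15, which are known as mitokines because they signal that damage to other organs.

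RefSeq promoter windows, from 250 bases before to 50 bases after the transcription start (GRCm38.p6), were held for all 10 genes and were searched on both strands for the letters TGATGNAA, which cover the CARE core. The letters were in the windows of 4 of the 10 genes, Atf3, Nupr1, Fgf21 and Trib3, and in 3.97% of all 32851 windows. In Atf3, Nupr1 and Fgf21 the match was the exact form TGATGCAA, which 0.895% of windows hold, read here as its complement. The match began 110 bases before the start in Atf3 and Nupr1 and 139 bases before it in Fgf21. In Trib3 it read TTACATCA and lay 15 bases after the start, inside the transcript. The stretches of the 3 upstream matches are shown because these genes carry the same element and had different values in the arrays; capitals mark the match, and the runs read 5′ to 3′ on the gene's strand, here the minus strand for chr1:191183410-191183469 (Atf3), chr7:126625547-126625606 (Nupr1) and chr7:45615596-45615655 (Fgf21).
Atf3: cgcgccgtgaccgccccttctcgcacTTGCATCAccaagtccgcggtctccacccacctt
Nupr1: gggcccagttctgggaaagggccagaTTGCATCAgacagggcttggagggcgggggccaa
Fgf21: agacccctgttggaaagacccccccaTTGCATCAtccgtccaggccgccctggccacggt
Sites more than 250 bases before the start were not searched, so an element there would be missed. Ddit3 had no CARE letters in its window. It held the AP-1 letters TGANTCA, the site of FOS and JUN dimers, 242 bases before the start, as did 7.81% of all windows; the stretch is shown because Ddit3 was the member called below (chr10:127290543-127290583, plus strand, AP-1 letters in capitals).
Ddit3: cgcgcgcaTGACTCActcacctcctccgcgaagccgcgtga
The cyclic AMP response element TGACGTCA, which 1.79% of windows hold, was in none of the 10 genes' windows. A match describes these letters only and shows no binding.

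Keratinocyte markers were bright on every array: the mean of 9 markers lay between 11.93 and 12.05 in K320E and between 11.84 and 12.00 in controls (log2 intensity), led by the suprabasal keratins Krt10 and Krt1. Twnk, the gene of the helicase, ranged from 8.91 to 9.28 in K320E and from 6.55 to 6.95 in controls, which matched the genotype labels. The sex-linked transcripts of 2 controls stood apart: control 2 combined a high Y-linked mean (9.05) with an intermediate Xist (9.27), and control 3 was low in both (4.75 and 6.17). K320E 3 differed from the other K320E arrays too, with a high Y-linked mean (8.64) and a low Xist (6.84, against 12.1 to 12.2). Marker lists of other cells differed too. All 15 measured hair structure genes had negative fold changes, with a list mean of 6.58 to 7.01 in K320E against 7.34 to 8.97 in controls, highest in control 4. Of 12 neutrophil markers 10 were positive, and their mean was 6.03 to 6.16 against 5.37 to 5.90. Their median difference was only 0.08, and 3 of the 12, S100a8 (1.73), S100a9 (1.56) and Cxcr2 (1.32), named after their values were seen, lay without overlap. The means of 8 sebocyte markers (7.54 to 7.84 against 8.06 to 8.58) and of 7 Langerhans and dendritic cell markers (6.33 to 6.44 against 6.68 to 6.80) lay lower without overlap, and those of 10 skeletal muscle markers overlapped, reaching 8.11 in K320E 3 and 7.30 in the highest control. The part of these cells in the values below was not tested. The mean of the macrophage markers, of interest here because activated macrophages express Atf3 and Cebpb, overlapped: 6.68 to 6.88 in K320E and 6.56 to 6.90 in controls, with 5 of 10 fold changes positive. In 2 of the 10 every K320E array was above every control. The brightest, Cd68, was 1 of these (0.51, limma adjusted p = 0.137), and the next brightest, C1qb, had -0.13 with overlap. In whole epidermis, fewer cells of a type and less RNA per cell cannot be told apart.

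Of the 9 measured members, 1 passed the test over all genes, Ddit3, which was higher in K320E (limma, Benjamini-Hochberg adjusted p under 0.05, called below). Over all genes 0.685% were called higher and 0.194% lower, and 0 members were called lower. All 9 fold changes were positive, from 0.05 for Fgf21 to 0.60 for Atf3 on the log2 scale, with a median of 0.27; the median of all genes was -0.00052. In 4 members, Atf4, Atf5, Ddit3 and Trib3, every K320E array lay above every control, as it did for 5.5% of all genes. At an unadjusted p under 0.05, 6 of the 9 were higher, against 8.77% of all genes. The members share arrays and, in part, regulation, so these counts are a description and not a test of the group. Fold changes were small throughout: the largest, of Atf3, was 1.52-fold.

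**Figure D1:**
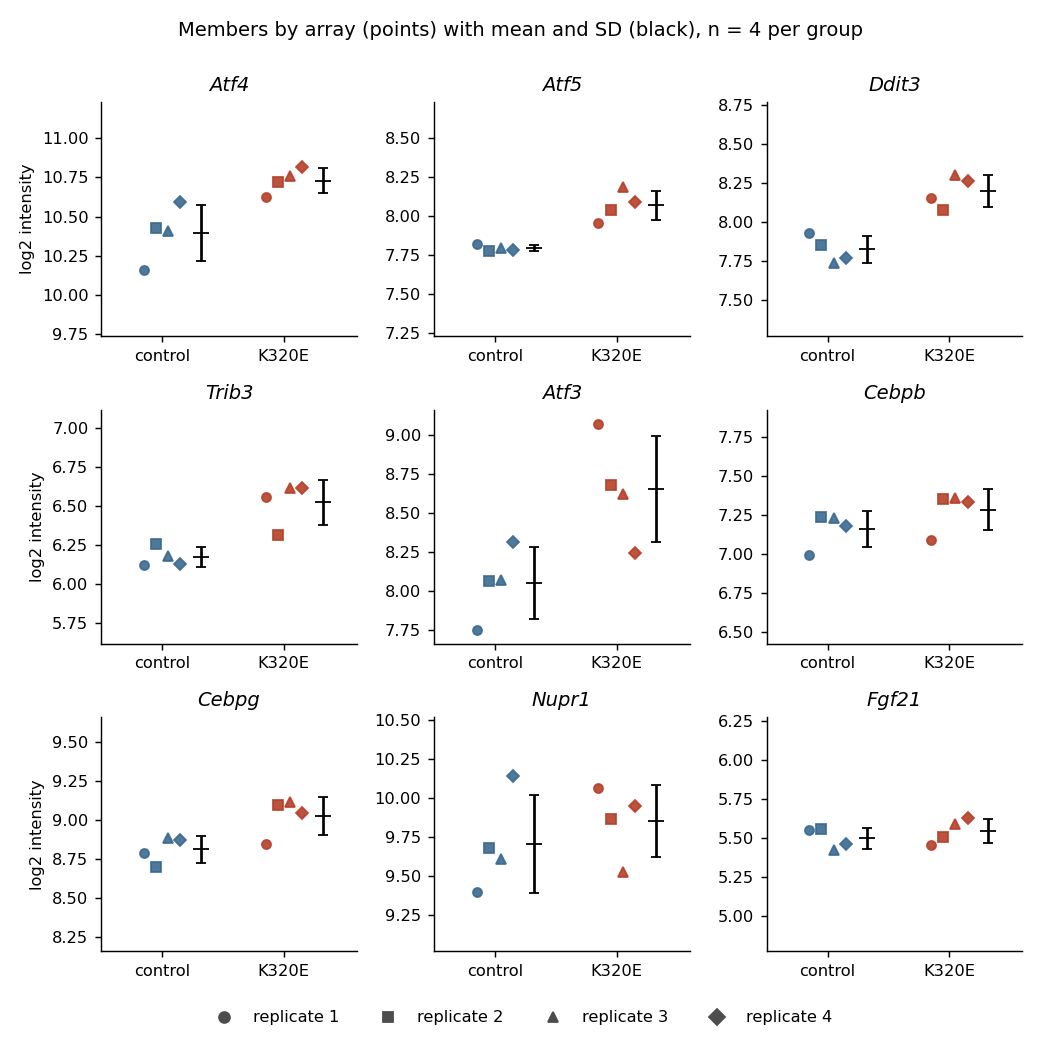
Log2 intensity of the 9 measured members in each array, with the mean and SD of each group in black (n = 4 per group); marker shape gives the replicate number, and every panel spans the same height. Atf4, Atf5, Ddit3 and Trib3 have no overlap between the groups, while the other 5 members overlap, with control 4 the highest of all arrays for Nupr1.

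Atf4, the factor at the head of the branch, measured 10.62, 10.72, 10.76 and 10.81 in K320E arrays 1 to 4 and 10.15, 10.43, 10.41 and 10.59 in controls 1 to 4. The groups did not overlap, but the gap between the lowest K320E array and the highest control was 0.03. The difference was 0.33 (SE 0.09, 95% interval 0.13 to 0.54), or 1.26-fold, and did not pass (limma adjusted p = 0.145). Without control 1, the lowest array, it was 0.25.

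Atf5, a relative of Atf4 that is linked to the mitochondrial unfolded protein response, was the tightest member among controls. Its controls lay at 7.82, 7.78, 7.80 and 7.78 (SD 0.02) and its K320E arrays at 7.96, 8.04, 8.19 and 8.09 (SD 0.10). All K320E arrays were above all controls by at least 0.14. The difference of 0.27 (SE 0.06, 95% interval 0.14 to 0.41) had a limma adjusted p of 0.082.

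Ddit3 encodes CHOP, a C/EBP-family factor that ATF4 induces and that promotes cell death when stress persists. It measured 8.16, 8.08, 8.30 and 8.26 in K320E and 7.94, 7.86, 7.74 and 7.77 in controls. The lowest K320E array was 0.15 above the highest control. Ddit3 rose by 0.38 (SE 0.07, 95% interval 0.22 to 0.53) in K320E, or 1.30-fold, with an adjusted p of 0.0497 in limma, just inside the threshold. The call was lost under 15 of 19 alternative settings, among them 7 of the 8 fits that left out an array (adjusted p up to 0.147, without K320E 3) and the fit without controls 2 and 3 (0.35, adjusted p = 0.156); the fold change stayed between 0.32 and 0.42 throughout. Among the 42 measured ATF4 targets described below, Eprs and Psph, an aminoacyl-tRNA synthetase gene and a serine synthesis gene, had the array-to-array deviations most like those of Ddit3. Their Pearson r, over deviations from the group means in the 8 arrays, was 0.911 and 0.901, given as a description of arrays that share their intensity scale.

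Trib3 encodes a pseudokinase that CHOP and ATF4 induce and that binds ATF4 to restrain it. It measured 6.56, 6.32, 6.61 and 6.61 in K320E and 6.13, 6.26, 6.18 and 6.13 in controls. K320E 2 was only 0.05 above control 2, and the other K320E arrays were clearly apart. The controls and K320E 2 lay below the median of the array's genes (6.36), and whether they were above background was not recorded. The difference was 0.35 (SE 0.08, 95% interval 0.18 to 0.53; limma adjusted p = 0.083). It passed when K320E 2 was left out (0.42, limma adjusted p = 0.028) and under no other setting. Of its relatives, Trib1 had a difference of 0.40 with no overlap (limma adjusted p = 0.123) and Trib2 one of 0.05.

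Atf3, a factor induced by ATF4 and also by many other acute stimuli, had the largest and most variable difference. Its values were 9.07, 8.68, 8.62 and 8.24 in K320E and 7.75, 8.06, 8.07 and 8.31 in controls. Control 4 exceeded K320E 4, so the groups overlapped. The difference was 0.60 (SE 0.17, 95% interval 0.22 to 0.99; limma adjusted p = 0.154). Without K320E 1, the highest array, it was 0.46, and without K320E 4 it was 0.74.

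Immediate early genes, which cells transcribe within minutes of a stimulus, were set beside Atf3 because Atf3 belongs to them too. Of the 15 measured, 14 had positive fold changes (median 0.40) and 1 was called, the AP-1 subunit gene Fosb. Over all genes 0.685% were called higher. Fosb measured 6.00, 6.05, 5.88 and 5.90 in K320E and 5.33, 5.63, 5.60 and 5.42 in controls, and rose by 0.46 (SE 0.08, limma adjusted p = 0.041). It lost its call in all 8 fits that left out an array (adjusted p up to 0.101, without control 4). Every Fosb array lay below the median of the array's genes (6.36), and whether it was above background was not recorded. The list mean was 8.32, 8.05, 7.98 and 7.92 in K320E 1 to 4, which ranks these arrays as Atf3 does. In controls 1 to 4 it was 7.61, 7.78, 7.81 and 7.73, which does not rank them as Atf3 does. Control 3 was the highest control for the list and control 4 for Atf3 (8.31). K320E 1 was the highest of the K320E arrays for 9 of the 15 genes. Egr1, chosen after its values were seen, was at 9.94 there and between 8.56 and 8.83 in the other K320E arrays. The part of handling or of any other stimulus in the Atf3 values was not tested.

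**Figure D2:**
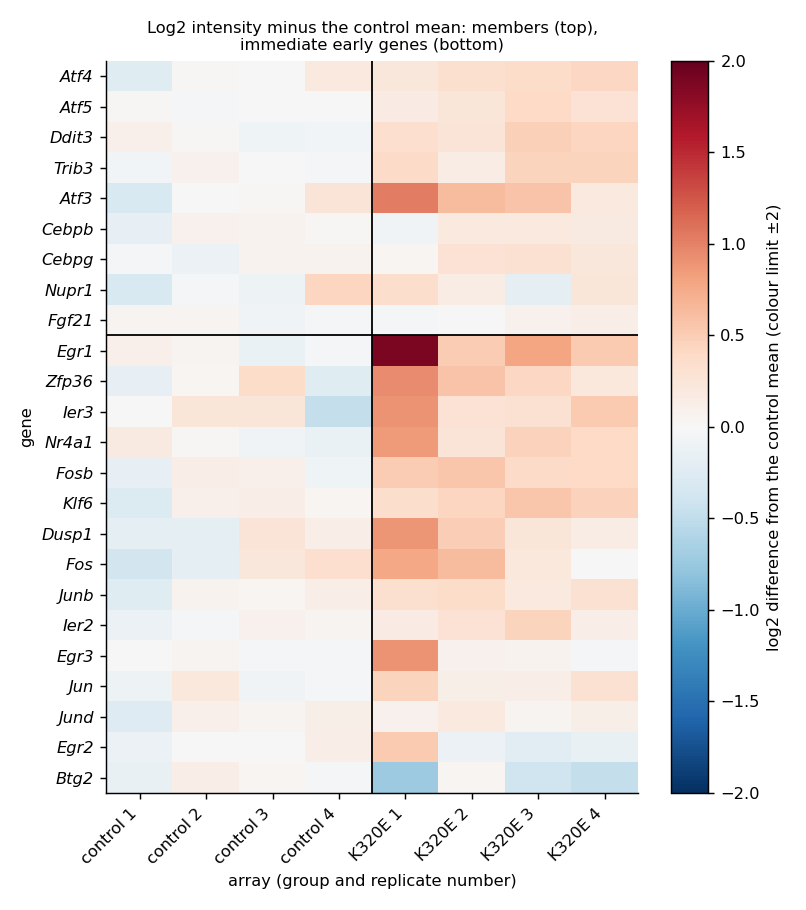
Log2 intensity of each gene minus its mean over the 4 controls, for the 9 members (above the line) and the 15 measured immediate early genes (below it), with an array per column. K320E 1 is darkest for Atf3 and for Egr1, while Atf4, Atf5 and Cebpg are paler there than in the other K320E arrays.

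Cebpb and Cebpg encode C/EBP partners of ATF4: C/EBP-beta is also a general factor of inflammation and of keratinocyte differentiation, and C/EBP-gamma lacks an activation domain of its own and works through its partners. Cebpb measured 7.09, 7.36, 7.36 and 7.33 in K320E and 6.99, 7.24, 7.23 and 7.18 in controls. The array numbered 1 was the lowest of each group, and the groups overlapped. Its difference was 0.12 (SE 0.08, 95% interval -0.06 to 0.31; limma adjusted p = 0.555). Cebpg measured 8.85, 9.09, 9.12 and 9.04 in K320E and 8.79, 8.70, 8.88 and 8.87 in controls. Only K320E 1 fell within the range of the controls. The difference was 0.21 (SE 0.08, 95% interval 0.04 to 0.38; limma adjusted p = 0.230).

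Nupr1, a small stress-induced chromatin protein gene, showed a wide spread in both groups. It measured 10.06, 9.86, 9.53 and 9.95 in K320E and 9.40, 9.68, 9.61 and 10.14 in controls. The highest of all 8 arrays was control 4 and the lowest was control 1. The difference of 0.14 (SE 0.16, 95% interval -0.23 to 0.51; limma adjusted p = 0.758) depended on these arrays: it was 0.29 without control 4 and 0.04 without control 1. Control 4 was also the array with the highest hair structure mean (8.97), and with that mean as a covariate the difference was 0.53 (limma adjusted p = 0.609). The part of the hair genes in it was not tested.

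Fgf21, the hormone gene of the branch, had nearly the same level in both groups: 5.45, 5.51, 5.59 and 5.63 in K320E and 5.55, 5.56, 5.42 and 5.46 in controls. The difference was 0.05 (SE 0.06; limma adjusted p = 0.802), and its 95% interval of -0.09 to 0.18 stops at 1.14-fold higher. The probe set was dim, below the median of the array's genes (6.36), and whether it was above background was not recorded in the values used, so a small change of a silent gene would not show. The receptors were measured as well. Klb, the co-receptor that FGF21 needs, had a difference of 0.13 and Fgfr1, its main signalling partner, one of -0.11, while Gfral and Ret, the receptor pair of GDF15, had -0.12 and -0.04; these 4 were chosen for their roles. Klb and Gfral were dimmer than Fgf21, so the same limit holds for them, and Klb was at 5.94 in K320E 3 and between 5.36 and 5.57 in the other K320E arrays. Over all genes 0.685% were called higher and 0.194% lower, and 14.8% had an unadjusted limma p under 0.05 in either direction. Of 15 receptors and relatives in the list, 0 were called in either direction (limma; 3 at an unadjusted p under 0.05), with a median of -0.04. The lowest adjusted p belonged to Inhbb, an activin subunit gene of the TGF-beta family, with no overlap between the groups (0.28, limma adjusted p = 0.092). Inhba, another activin subunit gene, named after its values were seen, had 0.40, also without overlap (limma adjusted p = 0.095).

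**Figure D3:**
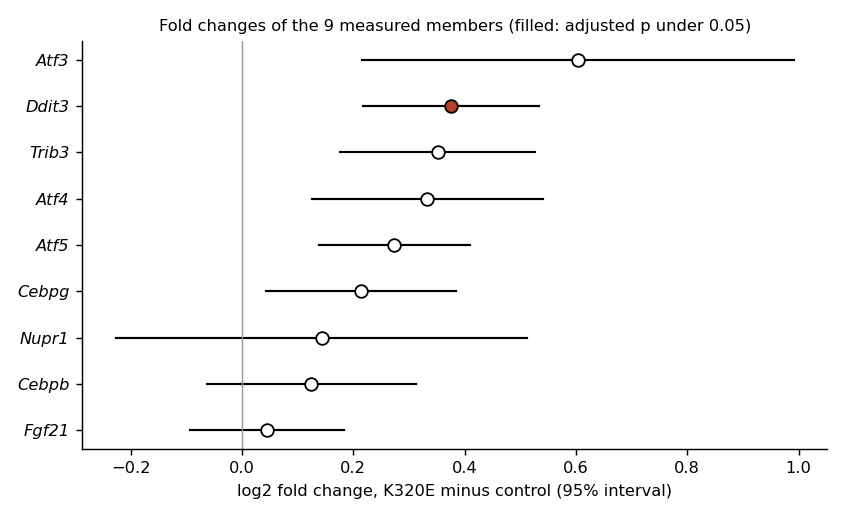
Log2 fold change of each measured member, K320E minus control, with its 95% interval from limma; the filled point is the member with an adjusted p under 0.05. The intervals of Nupr1, Cebpb and Fgf21 include 0, and those of the other 6 members do not, before adjustment over all genes.

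The genes that ATF4 is known to induce had a larger median difference than the regulators above. Of 42 measured ATF4 targets (45 listed), 20 were called higher and 0 lower, 41 had positive fold changes, and in 35 every K320E array was above every control. Over all genes 0.685% were called higher and 0.194% lower, and in 5.5% every K320E array was above every control. The median of the targets was 0.54, against 0.27 for the 9 members and -0.00052 for all genes. Leaving out an array changed the number called to between 8 (without K320E 3) and 23 (without K320E 2); it was 11 without K320E 4, control 1 or control 2, 13 without control 4, 14 without K320E 1 or control 3, and 11 without controls 2 and 3 together. The median was between 0.52 and 0.60 in the 8 fits that left out 1 array. With the hair structure mean as a covariate, which differs between the groups without overlap, 0 targets were called and the median was 0.45.

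The largest difference was in Slc7a3, a transporter of cationic amino acids. Its controls were as dim as the Fgf21 arrays, and whether they were above background was not recorded. Slc7a3 measured 7.49, 6.83, 7.38 and 7.50 in K320E and 5.39, 5.59, 5.50 and 5.11 in controls, far apart, and rose by 1.90 (SE 0.16, limma adjusted p = 0.0027). The mitochondrial folate enzyme Aldh1l2 rose by 1.27 (SE 0.13, limma adjusted p = 0.0055), from 5.85 to 6.19 in controls to 7.04 to 7.56 in K320E. The Aldh1l2 controls also lay below the median of the array's genes (6.36), and whether they were above background was not recorded. Stc2, a secreted glycoprotein gene, rose by 1.25 (SE 0.15, limma adjusted p = 0.010), and Eif4ebp1, whose product 4E-BP1 holds back cap-dependent translation, by 1.02 (SE 0.13, limma adjusted p = 0.013). Mthfd2, Cth, Slc7a11 and Asns, which make or import serine-derived folate units, cysteine, cystine and asparagine, rose by 1.59, 1.46, 1.29 and 0.99. Slc7a11 and Eif4ebp1 lost their calls without K320E 3 (adjusted p = 0.051 each), and the other 6 kept theirs whichever array was left out. The 3 brightest targets that were not called had smaller differences: the glutamine transporter gene Slc38a2 had 0.41, and the synthetase genes Eprs and Gars 0.26 and 0.20 (limma adjusted p = 0.097 to 0.220), each without overlap. CARE letters were in 5 of the 13 called targets that had a promoter window (Asns, Slc7a11, Vldlr, Pck2 and Yars) and in 5 of the 20 others (Chac1, Slc1a4, Gars, Iars and Jdp2).

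**Figure D4:**
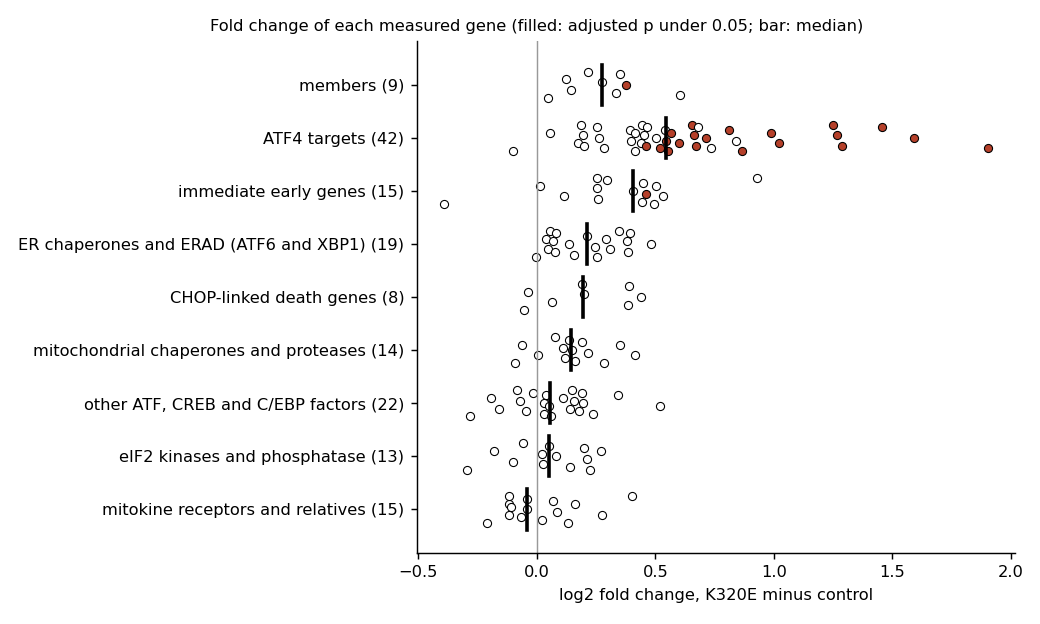
Log2 fold change of every measured gene of 9 lists, K320E minus control, with the number measured in brackets; filled points have an adjusted p under 0.05 and bars are medians. The filled points are 20 ATF4 targets, Ddit3 and Fosb.

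The rest of the pathway had few calls, and so had the whole array: 0.685% of all genes were called higher and 0.194% lower. A count of 0 in lists of this size is near that share and does not set them apart. One list held the 4 eIF2 kinases, 2 subunits of the opposing phosphatase, 5 subunits of the exchange factor eIF2B, and Oma1 and Dele1, which relay mitochondrial stress to the kinase HRI. Of these 13 genes, 0 were called in either direction (limma; 3 at an unadjusted p under 0.05, against 14.8% of all genes in either direction), with a median of 0.05. Dele1 had a difference of 0.21 and Oma1 one of -0.06, both with overlap. The lowest adjusted p was that of Ppp1r15b, a phosphatase subunit gene, with a difference of 0.27 (limma adjusted p = 0.105). The kinase genes Eif2ak1 (HRI), Eif2ak2 (PKR), Eif2ak3 (PERK) and Eif2ak4 (GCN2), chosen for their roles like Dele1 and Oma1, had differences of -0.18, -0.29, -0.10 and 0.02. ER chaperones and degradation genes, targets of the ATF6 and XBP1 branches, had 0 of 19 called (limma; 10 at an unadjusted p under 0.05), and 18 positive fold changes with a median of 0.21. Sel1l, of ER-associated degradation, had the lowest adjusted p (0.38, limma adjusted p = 0.102).

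Mitochondrial chaperones and proteases had 0 of 14 called (limma; 4 at an unadjusted p under 0.05) and a median of 0.14, with the lowest adjusted p in the mitochondrial HSP70 gene Hspa9 (0.28, limma adjusted p = 0.075). CHOP-linked death genes had 0 of 8 called (limma), and 5 were higher at an unadjusted p under 0.05. Their median was 0.19, and Pmaip1, which encodes NOXA, had 0.39 (limma adjusted p = 0.164). For comparison, 14.8% of all genes had an unadjusted limma p under 0.05 in either direction, and 8.77% were higher at that p. The shares called were 0.685% higher and 0.194% lower. Among 22 other ATF, CREB and C/EBP factors, 0 were called (limma; 8 at an unadjusted p under 0.05), with a median of 0.06. Their lowest adjusted p was of Hlf, a circadian output factor, whose K320E arrays were all below the controls (-0.28, limma adjusted p = 0.172). The lists share some genes, so their counts and medians are not independent. Chac1, Lonp1 and Jdp2 of these lists are also among the ATF4 targets. Ppp1r15a is in both the death and the eIF2 lists, and Atf6 in both the ER list and that of other factors.

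The members did not rank the K320E arrays alike. K320E 1 was the lowest of the 4 for 5 members (Atf4, Atf5, Cebpb, Cebpg and Fgf21) and the highest for 2 (Atf3 and Nupr1), while K320E 3 was the highest for 4 (Atf5, Ddit3, Cebpb and Cebpg) and K320E 4 for 3 (Atf4, Trib3 and Fgf21). The ATF4 targets ranked them differently again: K320E 1 was the highest for 24 of the 42 and K320E 2 the lowest for 29. K320E 1 had the highest mean of all 8 arrays in 7 of the 9 pathway and early gene lists, the targets included, and the lowest array weight in limma (0.551). The K320E array lowest in Atf4 mRNA was thus the one with the highest target mean (8.70, against 8.38 to 8.55 in the others). Among controls the target means lay between 7.82 and 7.96, while Atf4 ranged from 10.15 to 10.59 and was highest in control 4, the array with the lowest target mean. These orders rest on 4 arrays a group and were not tested.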

How the data were processed

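RNA of 4 K320E and 4 control epidermis samples was amplified, labelled with biotin and hybridised to 1 array each, per the labels' protocols. The authors deposited log2 intensities for 33793 probe sets, spanning 4.31 to 13.1, with array medians of 6.06 to 6.11. How background was corrected and probes were summarised and normalised is not given in the sources, and no further scaling was applied. GEO's platform annotation gave 23521 probe sets 1 symbol, 1814 several and 8458 none here. Each of 22180 genes was read from its brightest probe set on average, with names checked against RefSeq (GRCm38.p6, 0 changed). Groups come from the sample titles.

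The 2 genotypes were tested by limma 3.58.1 under R 4.3.3, with lmFit and eBayes fitted to all 8 arrays on genotype alone. P-values were adjusted by Benjamini-Hochberg over all genes, with a threshold of 0.05. Differences are K320E minus control with the moderated SE and 95% interval. The fit was tested on simulated data with 200 changed genes. It recovered 77.6% of 1.5-fold, 95.5% of 2-fold and 100% of 4-fold changes, with 14 false calls. Changes below 1.5-fold were not simulated, and every measured member but Atf3 lay below that size. The number of arrays limits the precision.

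The members, lists and tests were chosen with earlier results of these data known. The genes set to be named were all members, Twnk, the 8 called ATF4 targets with the largest fold change and the 3 brightest uncalled ones. They also held up to 4 called genes of each other list or else its lowest adjusted p. The 2 brightest markers of each cell type and the 2 targets most like a called member completed them, and not every marker is printed. Other genes given with a difference are marked as chosen by role or after their values were seen, save Trib2, the other Tribbles relative listed. Other settings covered scaling (median centring, quantile normalisation), probe sets (their mean, or each tested alone), a filter on the dimmest genes, a trend with a robust prior, array weights, a block for the replicate number, the Y-linked mean as a covariate, leaving out controls 2 and 3, and leaving out each array. A hair structure covariate was added after the data were seen.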

Additional observations from a re-analysis of the deposited data

Results flagged for a closer look

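The highest or lowest array of each group was set against the other 3 for 56 named genes, 112 groups in all, by the gap to its neighbour as a share of the group's range. Chance flags about 1 group in 20, and 8 groups were flagged. Among the members there was 1: Cebpb in K320E 1, at 7.09 against 7.33 to 7.36 in the other K320E arrays (share 0.898). Among ATF4 targets, Cth was low in control 4 (6.49 against 6.70 to 6.74, share 0.844) and Eif4ebp1 high in control 3 (8.30 against 7.89 to 7.95, share 0.844). The death gene Pmaip1 was low in K320E 3 (7.02 against 7.32 to 7.37, share 0.845). Among markers of cells, Krt10 was high in K320E 1 (12.95, share 0.838), Pparg high in control 4 (8.06, share 0.933), the endothelial cadherin gene Cdh5 high in K320E 3 (7.40 against 6.29 to 6.30, share 0.994), and Kit high in K320E 1 (8.83, share 0.852).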

How the results depend on the processing

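All 9 member fold changes kept a positive sign under every setting that measured them (Fgf21 was left out by the filter on dim genes). The count of members called was 1; it was 0 under quantile normalisation, median centring, every probe set, trend and robust prior, the replicate block, the Y-linked covariate, leaving out controls 2 and 3 together and the hair structure covariate, and 0 to 2 when an array was left out. In the same order Ddit3 had 0.32, 0.37, 0.38, 0.38, 0.38, 0.38, 0.35 and 0.36, and 0.34 to 0.42 when an array was left out; Trib3 had 0.32 to 0.42. ATF4 targets called were 12 with the replicate block, 11 without controls 2 and 3, 0 with the hair structure covariate, and 8 to 23 when an array was left out. Genes called in the other pathway and early gene lists, 1 at first, were 0 with median centring, the replicate block, the Y-linked covariate or the hair structure covariate and 0 to 2 when an array was left out. Cell type lists were not counted there. In the main fit they held 1 hair structure gene, 1 sebocyte gene and 2 Langerhans and dendritic cell genes called lower, and 1 T cell gene called higher. Genes called over the array, 195 at first, were 114 with the replicate block, 2 with the hair structure covariate and 53 to 173 when an array was left out. With the hair structure covariate the median difference was 0.29 in the members (0.27 without it) and 0.45 in the targets (0.54 without it); the cause of the lost calls was not tested. Same-numbered arrays did not deviate together in every pair (correlations 0.05, -0.06, 0.08 and 0.14), and not every array correlated best with its own number. These weak correlations cannot settle whether the number marks a true pairing. Signal over background was not recorded, which limits what can be said of dim probe sets. Among them are Fgf21, Klb, Gfral, Ret, Inhba, Fosb, the controls of Slc7a3 and Aldh1l2, the K320E arrays of Hlf, and Trib3 in the controls and K320E 2.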
